A study of Bos taurus with 48 samples.

Results

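ADM, the gene of the peptide hormone adrenomedullin (ENSBTAG00000021048), and CALCRL, the gene of its receptor (ENSBTAG00000008483), were followed in bovine leukocytes after weaning at housing. They are 2 of the 25669 genes in the table of read counts and were taken by identifier, whatever their values, in all 48 libraries. The libraries came from 12 calves of a Continental breed, which were spring-born male beef calves still suckling their dams. On d 0 all calves were brought indoors, and 6 of them were abruptly separated from the dam at the same time (weaned calves), while the other 6 were penned together with the dam (control calves). The 12 calves had all been vaccinated against respiratory viruses and had all been moved from pasture to slatted-floor pens, so that the control calves carry the effect of housing. Each calf gave a library on d 0, before housing, and on d 1, 2 and 7, which makes 8 groups of 6 separate animals.

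Adrenomedullin is a secreted peptide that relaxes blood vessels, tightens the endothelial barrier and dampens inflammation, and it is made by vessel walls and by macrophages and other leukocytes, more so in low oxygen or under endotoxin. CALCRL is a G-protein-coupled receptor with no fixed ligand of its own. A receptor activity-modifying protein (RAMP) brings it to the cell surface and sets its ligand: with RAMP1 it binds calcitonin gene-related peptide, and with RAMP2 or RAMP3 adrenomedullin. The bound receptor raises cyclic AMP through adenylyl cyclase, and the peptide is cleaved by the membrane protease MME (neprilysin).

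Total counts per library lay between 1662995 and 4256011. Levels are given as CPM, which are counts relative to the size of the library after TMM scaling. A count of 0 allows up to 3 counts, a level of 0.705 to 1.80 CPM depending on the library, by counting error alone. The blood cell types could not be compared, since symbols were at hand for only 16 of 74 listed cell markers and for none of the listed monocyte markers. Of those found, the natural killer cell receptor KLRK1 and the eosinophil gene ALOX15 had counts in all 48 libraries. In these mixed cells, fewer cells of a type and less RNA per cell cannot be told apart. Of the 36 libraries from d 1, 2 and 7, 13 resembled the d 0 library of another calf of their treatment more than that of their own calf, and comparisons within calves rest on the labels. A gene was called when edgeR's quasi-likelihood F-test gave a Benjamini-Hochberg adjusted p under 0.05 over all genes tested and a change of at least 2-fold.

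ADM was close to the limit of detection in most libraries, and 1 library dominated its counts. It had 359 counts in total, a median of 2 counts per library, 3 counts or fewer in 32 of the 48 libraries and none in 5. The d 0 library of weaned calf 1769 alone held 161 counts (36.8 CPM), which is 44.8% of all ADM counts and 94.2% of those of the weaned calves on d 0. The calves with the next highest totals were both controls, calf 1803 with 64 counts and calf 1759 with 23.

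Among weaned calves on d 0, ADM was 0.294 CPM in the lowest calf, 0.568 CPM in the median and 36.8 CPM in calf 1769. The other 5 weaned calves had between 1 and 4 counts on that day and did not exceed 1.09 CPM. On d 1 the weaned calves lay between 0.237 and 2.10 CPM, with a median of 0.542 CPM. On d 2 they ranged from 0 to 2.58 CPM (median 0.768 CPM), and on d 7 from 0.268 to 3.14 CPM (median 0.544 CPM). The 4 medians of the weaned calves thus all lay below 0.833 CPM, which is 3 counts in a library of median depth, and every later group overlapped d 0.

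Calf 1769 itself went from 36.8 CPM on d 0 to 1.54 CPM on d 1, 0.252 CPM on d 2 and 0.494 CPM on d 7, which were 6, 1 and 2 counts. Weaned calf 1809 moved the other way and had its lowest value, 0.587 CPM, on d 0 and its highest, 3.14 CPM, on d 7.

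Control calves ranged from 0 to 7.33 CPM on d 0 (median 0.887 CPM) and from 0 to 7.70 CPM on d 1 (median 0.656 CPM). On d 2 they lay between 0.473 and 2.79 CPM (median 0.635 CPM), and on d 7 between 0 and 2.73 CPM (median 0.427 CPM). On both of the first days the highest control value was that of calf 1803, which went from 7.33 CPM on d 0 to 7.70, 2.79 and 0.270 CPM on d 1, 2 and 7. Calf 1759 followed at a lower level, with 2.46, 3.98, 0.693 and 0 CPM on the same days. Calf 1802, in contrast, had its highest value of 2.73 CPM on d 7.

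**Figure D1:**
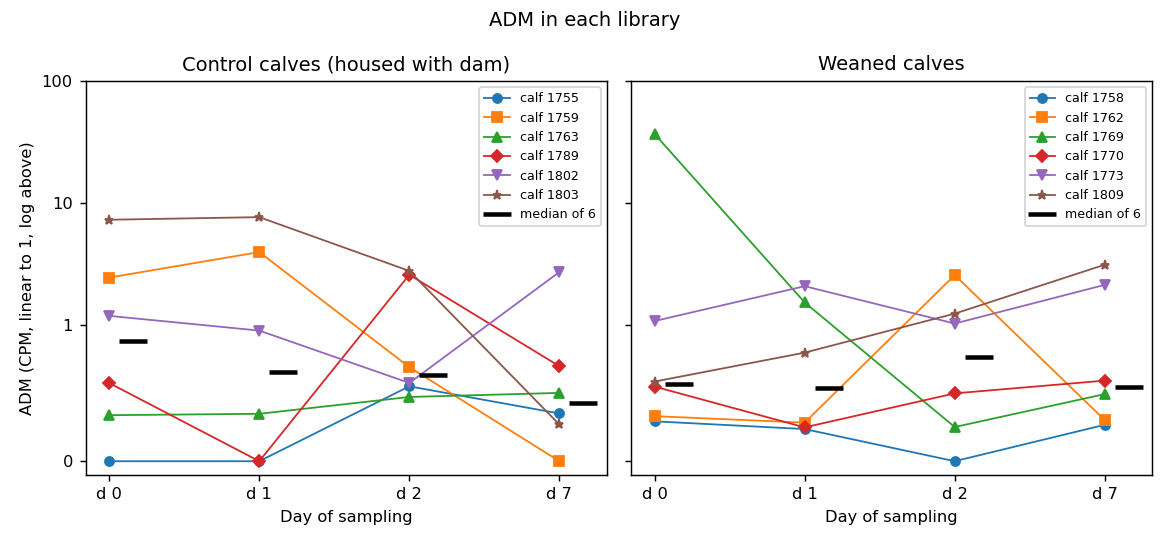
ADM in CPM (axis linear up to 1, logarithmic above) in every library, by day of sampling, for the 6 control and the 6 weaned calves; lines join the libraries of a calf and black bars are the medians of 6. The d 0 library of weaned calf 1769, at 36.8 CPM, stands above all others, of which the highest is control calf 1803 on d 1 at 7.70 CPM.

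In order of their means, the groups ran from weaned calves on d 0 (6.61 ± 14.8 CPM, SD, n = 6) to control calves on d 7 (0.760 ± 0.995 CPM, SD, n = 6). By their medians the control calves on d 0 came first and the weaned calves on d 0 only the fifth. None of the 7 pairs of neighbours in the order of means differed by more than the larger of their SDs, and all 7 overlapped.

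The study had named ADM for its change from d 0 in weaned calves on d 1, 2 and 7, and CALCRL for its change on d 1. It did so from the same libraries, so the values of those comparisons are not independent evidence of a direction. ADM was lower on d 1, with a log2 change of -2.97 (SE 1.15), and the adjusted p was 0.423 by edgeR's F-test. On d 2 the log2 change was -2.97 (SE 1.21; adjusted p 0.944) and on d 7 it was -2.56 (SE 1.16; adjusted p 0.920). None of the 3 was called, as no gene was: the share called was 0% of 14038, 13984 and 14026 genes tested. The unadjusted p was 0.0201, 0.0264 and 0.0429, and an unadjusted p under 0.05 was had by 10.4%, 2.11% and 2.66% of the genes tested. The median log2 change over all genes tested was 0.02, 0.03 and 0.04. With calf as a block the changes of ADM were smaller, at -1.93 (SE 0.75), -1.25 (SE 1.18) and -0.86 (SE 1.11), with adjusted p of 0.161, 0.960 and 0.923.

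All 3 values turned on calf 1769. With this calf left out, the log2 change of ADM in weaned calves was 0.30, 0.73 and 1.10 on the 3 later days. The mean of the remaining 5 calves was 0.570 CPM on d 0 and 0.733, 1.07 and 1.29 CPM afterwards. Over single calves, ADM was lower on d 1 than on d 0 in 4 of 6 weaned calves, lower on d 2 in 4 and lower on d 7 in 3. These tallies rest on few counts. On d 1, calves 1758 and 1762 had 1 count as on d 0, so that library size alone set their direction. Calf 1770 went from 2 counts to 1, and calf 1769 from 161 to 6. The exact two-sided permutation test of the changes of ADM on log2(CPM + 1), by flipping signs within calves, gave p = 0.656, 0.781 and 0.875. The smallest value possible is 0.0312. A test that shares 1 dispersion among all genes, as early versions of edgeR did, called ADM on all 3 days, with adjusted p of 4.14e-13, 6.03e-10 and 9.1e-09. That exact test called 0.456%, 0.443% and 0.271% of the genes tested.

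Between treatments on d 0, before either treatment had begun, ADM was higher in weaned calves by 1.78 on the log2 scale (SE 1.12), with an adjusted p of 0.624. The difference was -1.72 without calf 1769 and -1.77 with flowcell as a block, a fit in which the library of calf 1769 was the only d 0 library of its flowcell. The exact test with 1 dispersion called this difference as well (adjusted p 4.81e-06), along with 0.488% of the genes tested. On d 1, 2 and 7 the log2 difference between weaned and control calves was -1.32 (SE 0.93), -0.62 (SE 0.71) and 0.53 (SE 0.75), with adjusted p of 0.959, 0.950 and 0.650. Without control calf 1803 the d 1 and d 2 differences were -0.26 and -0.23, and with flowcell as a block the d 1 difference was -0.14. The exact permutation test over calves gave p of 0.842, 0.580, 0.537 and 0.509 on d 0, 1, 2 and 7.

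In control calves ADM on d 1 was 0.12 above d 0 on the log2 scale (SE 1.00), on d 2 the change was -0.58 (SE 0.77) and on d 7 it was -1.30 (SE 0.83), with adjusted p of 0.999, 0.739 and 0.241. On d 7, 515 of 13829 genes (3.72%) were called in the control calves, and ADM was not among them. Its value on that day moved from -1.30 to -0.0085 without calf 1803 and to -2.34 without calf 1802, and 4 of 6 control calves were higher on d 7 than on d 0. Among these 4, calf 1755 went from 0 to 1 count, calf 1763 from 1 to 2 and calf 1802 from 4 to 8. Calf 1789 had 2 counts on both days. The exact test with 1 dispersion called ADM in control calves on d 7 (adjusted p 0.0275), with 5.37% of the genes tested. The change since d 0 differed between weaned and control calves by -1.97 on d 1 (SE 0.96), -1.12 on d 2 (SE 1.37) and 0.12 on d 7 (SE 1.36), with adjusted p of 0.231, 0.674 and 0.955 in the interaction tests. Without calf 1769 the difference on d 1 was 0.21.

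CALCRL could be measured in every group. It had 1585 counts, a median of 26.5 per library, and more than 3 counts in all but 1 library, weaned calf 1809 on d 7 with 3 counts (0.942 CPM). Levels ran up to 37.7 CPM, and calf means differed 4.18-fold, from 4.09 to 17.1 CPM.

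In weaned calves on d 0, CALCRL was 3.52 CPM in the lowest calf, 6.54 CPM in the median and 9.51 CPM in the highest. On d 1 the weaned calves ranged from 7.20 to 37.7 CPM with a median of 9.06 CPM. On d 2 they ranged from 3.75 to 34.4 CPM (median 7.06 CPM) and on d 7 from 0.942 to 22.8 CPM (median 8.21 CPM). Each of these 3 later groups had a calf far above the rest, which was calf 1773 on d 1 (37.7 CPM, next 14.7 CPM) and calf 1758 on d 2 (34.4 CPM, next 11.3 CPM) and d 7 (22.8 CPM, next 11.6 CPM).

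In control calves CALCRL lay between 4.19 and 17.0 CPM on d 0 (median 8.49 CPM). On d 1 it lay between 1.40 and 26.7 CPM (median 6.12 CPM), on d 2 between 3.12 and 13.7 CPM (median 7.21 CPM) and on d 7 between 3.16 and 8.11 CPM (median 4.14 CPM). The d 7 controls had the lowest median and the lowest mean of the 8 groups (4.83 ± 1.93 CPM, SD, n = 6), and the d 1 weaned calves the highest of both (mean 14.2 ± 11.8 CPM, SD, n = 6). As for ADM, none of the 7 pairs of neighbours in the order of means differed by more than the larger SD, and all 7 overlapped.

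**Figure D2:**
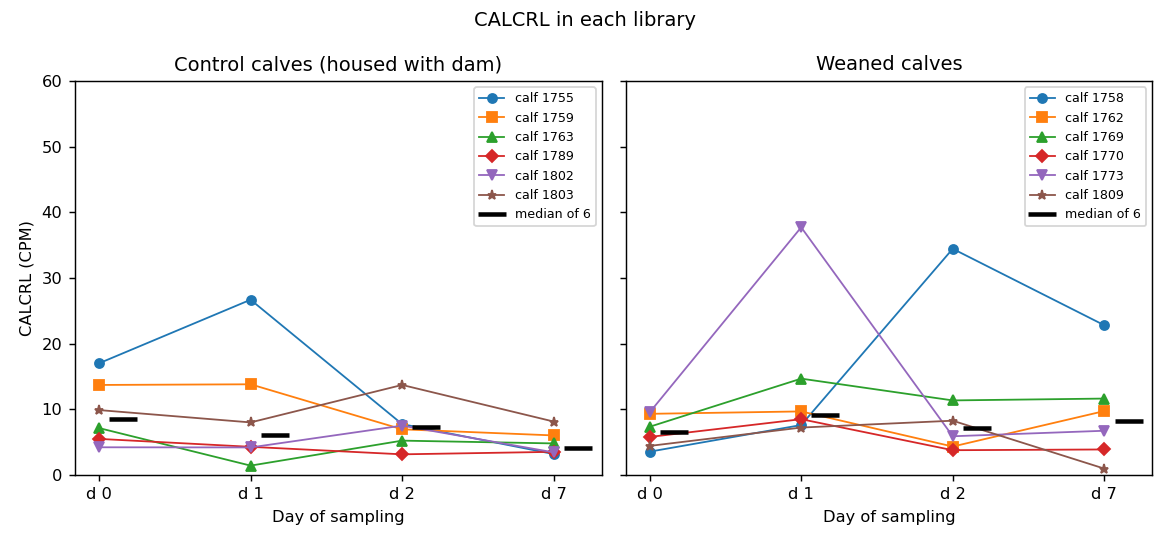
CALCRL in CPM in every library, by day of sampling, for the 6 control and the 6 weaned calves; lines join the libraries of a calf and black bars are the medians of 6. All 6 weaned calves were higher on d 1 than on d 0 and all 6 control calves lower on d 7 than on d 0, while calves 1773, 1758 and 1755 each had 1 or 2 libraries above 20 CPM.

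From d 0 to d 1 CALCRL was higher in 6 of 6 weaned calves. The smallest step was that of calf 1762, from 9.29 to 9.66 CPM, and the largest that of calf 1773, from 9.51 to 37.7 CPM. The log2 change was 1.07 (SE 0.41) with an adjusted p of 0.423 by edgeR's F-test, so the gene was not called. The exact sign-flip permutation test gave p = 0.0312, which is the smallest it can give. It was 1 of 26 exact permutation tests made for the 2 genes, by sign flips within calves or by labels between treatments. The log2 change lay between 0.62, without calf 1773, and 1.28, without calf 1762. With calf as a block it was 0.92 (SE 0.24), with an adjusted p of 0.149. By the exact test with 1 dispersion it was called (adjusted p 0.0101).

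On the later days the weaned calves were split. CALCRL was higher than on d 0 in 3 of 6 weaned calves on d 2 and in 3 of 6 on d 7, with log2 changes of 0.78 (SE 0.49; adjusted p 0.944) and 0.48 (SE 0.50; adjusted p 0.920). Without calf 1758 they were -0.10 and -0.13.

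Control calves differed most from d 0 on d 7, when CALCRL was lower in 6 of 6 calves. The largest difference was that of calf 1755, from 17.0 to 3.16 CPM, and the smallest that of calf 1802, from 4.19 to 3.42 CPM. The log2 change was -0.95 (SE 0.35) with an adjusted p of 0.0638, and the exact sign-flip permutation test again gave its smallest p of 0.0312. The gene was called in the fit without calf 1803 (-1.17, adjusted p 0.0399), whereas with calf as a block its adjusted p was 0.0401 at a log2 change of -0.87, under 2-fold. This comparison had 40.1% of genes at an unadjusted p under 0.05. On d 1 and d 2 the control calves gave log2 changes of 0.03 (SE 0.54) and -0.37 (SE 0.37), with adjusted p of 0.999 and 0.660, and CALCRL was lower in 4 of 6 calves each time. The d 1 value was -0.35 without calf 1755.

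Taken with its sign, the change since d 0 was higher in weaned than in control calves on each day. On the log2 scale the interaction was 1.11 on d 1 (SE 0.39), 0.77 on d 2 (SE 0.62) and 1.06 on d 7 (SE 0.57). On d 7 the change was larger in size in control calves (-0.95) than in weaned calves (0.48). None of these interactions passed the adjustment (adjusted p 0.200, 0.544 and 0.181, 0% of 14786, 14733 and 14713 genes called). On d 1 the exact permutation test of the calf labels gave p = 0.0130 (smallest possible 0.00216), and the estimate stayed between 0.83 and 1.36 with each calf left out. At an unadjusted p of 0.0114 CALCRL was among 22.3% of genes below 0.05 in that interaction. On d 2 and d 7 the exact permutation p was 0.340 and 0.195, and without weaned calf 1758 the estimates were 0.21 and 0.62.

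Weaned and control calves compared on the same day differed in CALCRL by -0.51 on d 0 (SE 0.35), 0.52 on d 1 (SE 0.58), 0.62 on d 2 (SE 0.50) and 0.94 on d 7 (SE 0.50) on the log2 scale. The adjusted p was 0.624, 0.959, 0.950 and 0.230, and the exact permutation p 0.271, 0.284, 0.634 and 0.396. The groups overlapped on every day. The d 7 difference was called when weaned calf 1809 was left out (1.17, adjusted p 0.0428). With all calves kept, edgeR's F-test on d 7 put 3550 of 13932 genes below 0.05 before adjustment, and it called 0. How many other genes were called without calf 1809 is not given here. The d 1 difference was -0.053 without calf 1773, and the d 2 difference was -0.11 without calf 1758. Since the d 0 libraries enter both the weaned and the control changes, the d 0 difference of -0.51 enters each interaction.

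**Figure D3:**
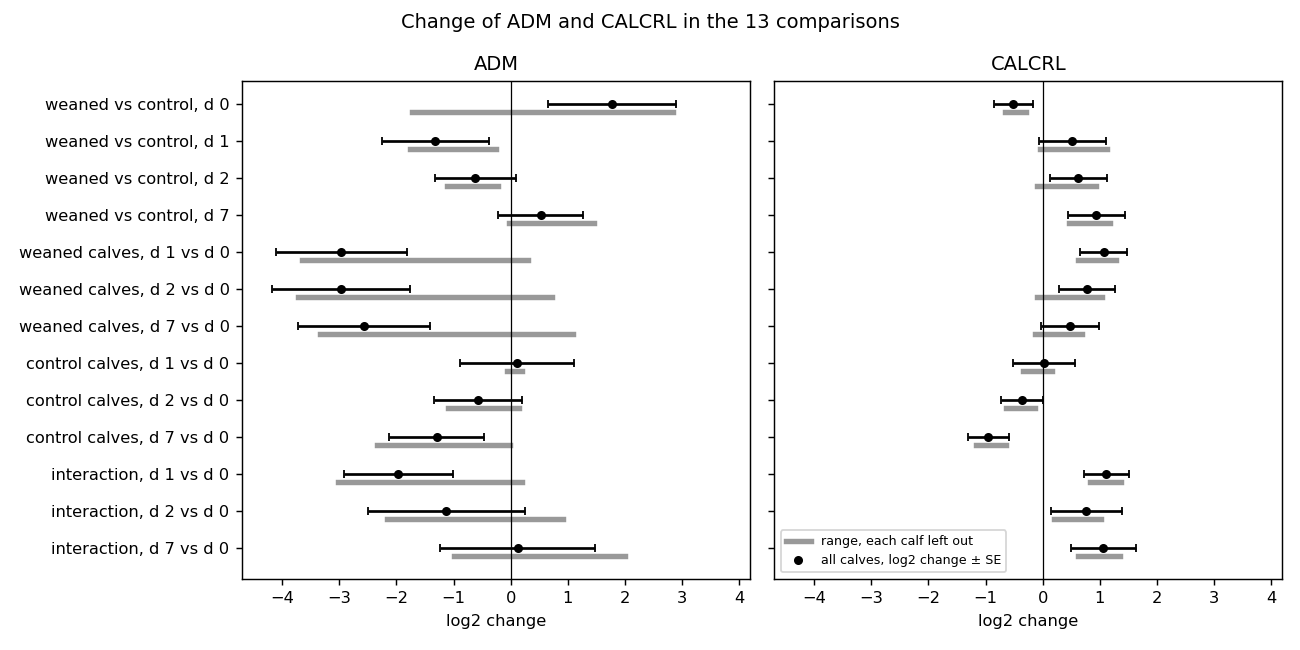
Log2 change of ADM and CALCRL ± SE from edgeR in the 10 comparisons of 2 groups (6 calves each) and the 3 treatment by day interactions (black), with the range of the estimate over fits that each leave out 1 calf (grey). For ADM the grey range crosses 0 in all 3 comparisons of weaned calves with d 0, while for CALCRL it stays above 0 in weaned calves on d 1 (0.62 to 1.28) and below 0 in control calves on d 7 (-1.17 to -0.64).

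CALCRL moved with properties of the library. Over the 48 libraries, which are 4 from each of 12 calves, its log2(CPM + 1) had a Spearman correlation of 0.64 (Pearson 0.72) with the share of uniquely aligned reads that had been kept when reads at the same position were removed. Of 11071 genes with at least 480 counts, 99.3% had a lower correlation with this share, and the median was -0.04. Within each day, over 12 calves, the Spearman correlation was 0.61, 0.68, 0.59 and 0.66 on d 0, 1, 2 and 7. For ADM it was -0.10 over all libraries.

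With the number of genes detected in the library, which ran from 12919 to 14950, CALCRL had a Spearman correlation of 0.63, against -0.22 for ADM, and 79.7% of genes had a lower one than CALCRL. With the share of kept reads as a covariate, the log2 change of CALCRL in weaned calves was 0.58 on d 1 (SE 0.25) in place of 1.07, and -0.10 on d 7 in place of 0.48. In control calves on d 7 it was -0.63 (SE 0.34) in place of -0.95, and between treatments on d 7 it was 0.21 (SE 0.48) in place of 0.94. The d 1 interaction was 0.82 (SE 0.28; adjusted p 0.175). The part of this share in the CALCRL values was not tested beyond this fit.

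**Figure D4:**
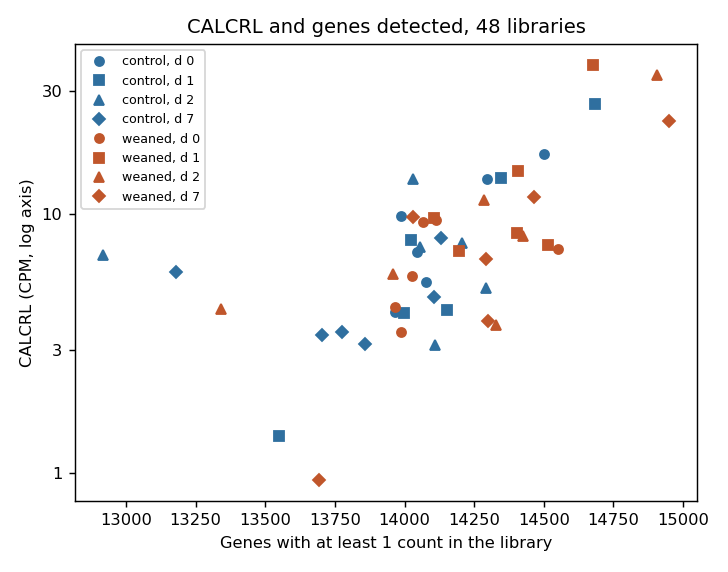
CALCRL (CPM, log axis) against the number of genes with at least 1 count, for each of the 48 libraries, coloured by treatment and marked by day. The 4 libraries with the highest CALCRL, 22.8 to 37.7 CPM, are also the 4 with the most genes detected, 14677 to 14950.

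The 4 libraries highest in CALCRL were those of weaned calf 1773 on d 1 (37.7 CPM), weaned calf 1758 on d 2 (34.4 CPM) and d 7 (22.8 CPM), and control calf 1755 on d 1 (26.7 CPM), and no other exceeded 17.0 CPM. They were also the 4 with the highest share of kept reads and the 4 with the most genes detected. The same 4 libraries were the top 4 for 1586 of 11071 genes (14.3%), so that CALCRL shared this feature with many genes. Without these 4 libraries the median of CALCRL was 8.47 CPM in 5 weaned calves on d 1 and 4.26 CPM in 5 control calves on d 1, and the highest values were 14.7 and 13.8 CPM. They were left out after their values had been seen, and no test was made without them.

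A cell marker could be identified only if it was among the genes that the study had called from these same libraries. The changes of the markers are therefore not independent evidence of a direction. Of the markers of endothelium, where CALCRL is best known, 2 of 8 could be identified. These were TEK, the angiopoietin receptor, and KDR, a receptor for vascular endothelial growth factor. In weaned calves their sum ran from 3.23 to 8.96 CPM on d 0 (median 6.15 CPM) and from 4.54 to 23.9 CPM on d 1 (median 7.60 CPM). It ran from 5.16 to 24.1 CPM on d 2 (median 7.78 CPM) and from 4.71 to 32.4 CPM on d 7 (median 9.05 CPM). In control calves the sum ran from 4.32 to 13.2 CPM on d 0 (median 9.02 CPM) and from 4.85 to 8.71 CPM on d 1 (median 6.51 CPM). It ran from 1.39 to 8.93 CPM on d 2 (median 6.00 CPM) and from 3.15 to 9.06 CPM on d 7 (median 7.85 CPM). TEK was at 0 in 1 library and KDR in none. On d 1 in weaned calves KDR was higher by 0.93 on the log2 scale (SE 0.42; adjusted p 0.423, as for CALCRL), and its d 1 interaction was 1.55 (SE 0.44; adjusted p 0.200). That interaction includes a change of KDR in control calves on d 1 of -0.79 (SE 0.29; adjusted p 0.999). Between treatments on d 0, KDR already differed by -0.73 (SE 0.28; adjusted p 0.624). For TEK the change in weaned calves on d 1 was 0.67 (SE 0.52; adjusted p 0.494) and the d 1 interaction 0.07 (SE 0.75; adjusted p 0.961).

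Other markers with an unadjusted p under 0.05 in weaned calves on d 1 were KLRK1 (1.07, SE 0.40) and IL5RA, the interleukin 5 receptor of eosinophils (1.07, SE 0.40). Both had an adjusted p of 0.423. Before weaning, on d 0, both were already lower in weaned than in control calves, by -0.95 for KLRK1 (SE 0.39) and -1.18 for IL5RA (SE 0.52). The adjusted p of both was 0.624. On d 1 the difference between treatments was 0.17 for KLRK1 (SE 0.52) and 0.15 for IL5RA (SE 0.49). KLRK1 had a difference of -0.86 (SE 0.35; adjusted p 0.0846) in control calves on d 7. The other identified eosinophil gene, ALOX15, had 34674 counts against 2268 for IL5RA. Its log2 change was 0.05 (SE 0.22; adjusted p 0.922) in weaned calves on d 1. In control calves on d 7 ALOX15 had 0.55 (SE 0.24; adjusted p 0.103) and IL5RA -0.27 (SE 0.58; adjusted p 0.748). Of the 16 identified marker rows tested in weaned calves on d 1, 3 had an unadjusted p under 0.05 upwards and none downwards, and none passed the adjustment. Of all genes tested there, 10.4% had an unadjusted p under 0.05. The part of these cell types in the CALCRL values was not tested.

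All 6 listed fibroblast markers were identified, each by a symbol that the study paired with the genes it called. As for the other markers, their changes are thus not independent evidence of a direction. Their sum in weaned calves ran from 2.99 to 331 CPM on d 0 (median 147 CPM), 0.800 to 237 CPM on d 1 (median 53.0 CPM), 0 to 39.5 CPM on d 2 (median 6.39 CPM) and 0.494 to 51.3 CPM on d 7 (median 8.14 CPM). In control calves the median of the sum was 28.5, 62.8, 55.3 and 30.0 CPM on d 0, 1, 2 and 7. On d 0, before treatment, COL1A1 was already higher in weaned than in control calves by 1.73 (SE 0.88) and COL1A2 by 1.82 (SE 0.94). COL3A1 was higher by 1.58 (SE 0.77), these 3 with an adjusted p of 0.624, and DCN by 1.21 (SE 1.07; adjusted p 0.647). COL1A1 was at 0 in 4 libraries, COL1A2 and COL3A1 in 5 each, DCN in 28, PDGFRB in 30 and LUM in 41. In the weaned calves on d 2, when ADM stood at -2.97, the collagen genes COL1A1 (-3.32, SE 1.02), COL1A2 (-3.44, SE 1.01) and COL3A1 (-3.02, SE 0.97) and the proteoglycan gene DCN (-3.08, SE 1.17) were lower, each with an adjusted p of 0.944 by edgeR's F-test. In weaned calves on d 1, when ADM stood at -2.97 as well, COL1A1 had -1.20 (SE 0.98) and COL1A2 -1.03 (SE 0.98). COL3A1 had -0.43 (SE 0.93) and PDGFRB -0.45 (SE 0.94) on that day. DCN (0.88, SE 1.02) and LUM (1.97, SE 1.18) went the other way, and the lowest adjusted p of the 6 was 0.429, for LUM. The part of the fibroblast markers in the ADM values was not tested. In the library of calf 1769 on d 0, ADM was the only gene of the lists used here that had at least 30 counts and stood at least 2-fold above every other library.

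Besides ADM and CALCRL, 2 of the other 13 genes listed for the adrenomedullin system could be identified. These were RAMP3, which makes CALCRL an adrenomedullin receptor, and the protease gene MME. Both were named by symbols that the study paired with the genes it called, so they are not a neutral sample of the system, and RAMP1 and RAMP2 were not analysed here. Both passed the filter on low counts in all 13 comparisons, and neither had an unadjusted p under 0.05 in any.

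RAMP3 had 141 counts, a median of 2 per library, and 3 counts or fewer in 35 of 48 libraries. In control calves it ranged from 0 to 1.13 CPM on d 0, 0 to 1.28 CPM on d 1, 0.279 to 2.34 CPM on d 2 and 0 to 7.70 CPM on d 7. The d 7 maximum was calf 1789 with 22 counts, of 30 in the whole group. In weaned calves it ranged from 0 to 2.05 CPM on d 0, 0 to 4.88 CPM on d 1, 0.236 to 1.25 CPM on d 2 and 0 to 1.26 CPM on d 7, and the d 1 maximum was calf 1769 with 19 of 29 counts. The log2 change of RAMP3 in weaned calves was 0.59 on d 1 (SE 0.84), 0.06 on d 2 (SE 0.63) and -0.47 on d 7 (SE 0.72). In control calves on d 7 it was 1.90 (SE 0.91; adjusted p 0.125). In the 4 libraries highest in CALCRL, RAMP3 had 0, 1, 0 and 0 counts.

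MME had 183 counts, a median of 2 per library and a maximum of 23. In weaned calves its median was 0.701 CPM on d 0, 1.42 CPM on d 1, 0.597 CPM on d 2 and 0.897 CPM on d 7, and in control calves 0.762, 0.551, 0.736 and 0.475 CPM. Its log2 change in weaned calves was 1.03 on d 1 (SE 0.72), 1.04 on d 2 (SE 0.76) and 0.79 on d 7 (SE 0.61), with adjusted p of 0.460, 0.944 and 0.920. The 4 libraries highest in MME were the same 4 as for CALCRL, with 23, 15, 12 and 10 counts, while no other library had more than 8. Over the 48 libraries MME and CALCRL had a Spearman correlation of 0.46, and RAMP3 and CALCRL one of -0.28.

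**Figure D5:**
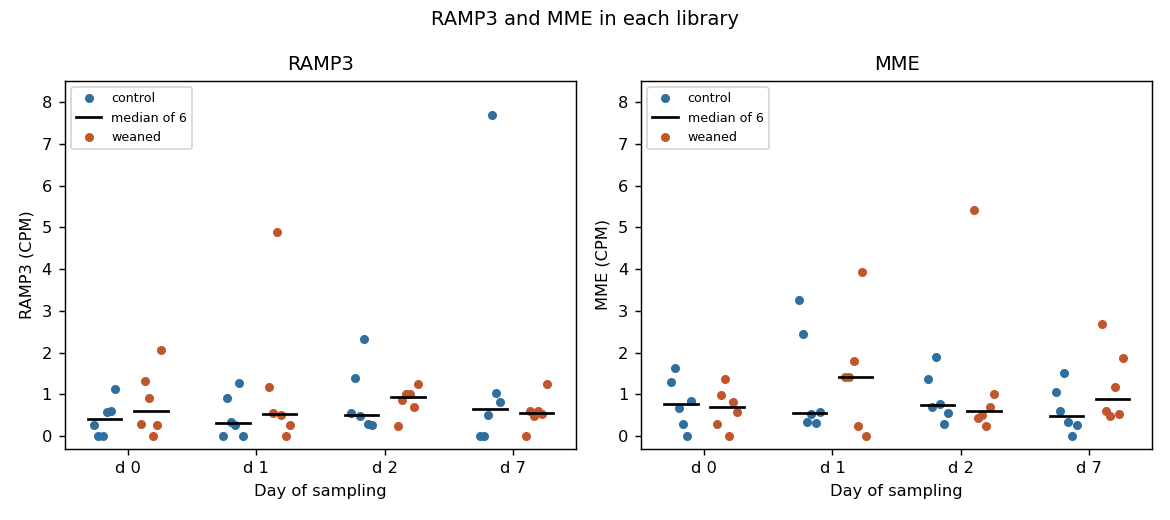
RAMP3 and MME in CPM in each library, for control and weaned calves by day; points are single calves and bars are medians of 6. Most values lie below 2 CPM, and single libraries stand out at 7.70 CPM for RAMP3 (control calf 1789, d 7) and 5.43 CPM for MME (weaned calf 1758, d 2).

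Of 18 genes listed for cyclic AMP signalling, the path that CALCRL feeds, 3 were identified: PRKACB, a catalytic subunit of protein kinase A; ADCY8, an adenylyl cyclase; and RAPGEF4, an exchange factor that cyclic AMP activates. In weaned calves on d 1, where RAPGEF4 was below the filter on low counts, neither of the other two had an unadjusted p under 0.05, with log2 changes of 0.46 for PRKACB (SE 0.24) and -0.40 for ADCY8 (SE 0.28). The d 1 interaction of PRKACB was 0.69 (SE 0.30; adjusted p 0.205). In control calves on d 7 PRKACB had a log2 change of -0.96 (SE 0.24) with an adjusted p of 0.0242, just under 2-fold, and its median was 25.4 CPM against 47.1 CPM on d 0. ADCY8 had a log2 change of 0.70 there (SE 0.30; adjusted p 0.0916).

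PRKACB was highest in the same 4 libraries as CALCRL, at 99.1 to 121 CPM against at most 80.5 CPM elsewhere, and its Spearman correlation with the number of genes detected was 0.79. RAPGEF4 had 32 counts in all libraries together, with 0 in the 6 weaned calves on d 0 and 11 on d 7, so no fold is given. None of the 18 genes listed for the response to low oxygen, its regulators and their targets, could be identified, and these were not analysed here.

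ADM and CALCRL did not move together across libraries. The Spearman correlation between them was -0.15 (Pearson -0.05) over 48 libraries, and -0.15 without the d 0 library of calf 1769. Calf 1769 had 7.32 CPM of CALCRL in that library, against a median of 6.54 CPM in the group. Of the 341 named genes with at least 480 counts, those most like ADM over the 48 libraries were EPHX2, the soluble epoxide hydrolase (Spearman correlation 0.50), ID1, an inhibitor of DNA binding (0.48), clusterin CLU (0.43), the Wnt receptor FZD7 (0.42) and the transglutaminase TGM2 (0.40). Those least like it were MS4A2, a chain of the IgE receptor of basophils and mast cells (-0.43), the laminin LAMA4 (-0.41) and the histidine ammonia-lyase HAL (-0.40). With a median of 2 counts, the order of ADM among libraries is mostly set by 0 to 4 counts.

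Those most like CALCRL were HNMT, the histamine-degrading methyltransferase (0.86), the phosphatidylinositol kinase PIK3C3 (0.83), the zinc transporter SLC30A6 (0.82), PLDN (0.82) and the proteasome activator PSME4 (0.82). Among the 340 named genes, the least like it were the receptor phosphatase PTPRF (-0.66), PGLYRP1, an antibacterial protein of neutrophil granules (-0.61), and the nuclear receptor HNF4A (-0.52). Of all other genes with at least 480 counts, named or not, 11.9%, 16.1% and 24.4% had a still lower correlation with CALCRL than these, in this order. Over all 11070 other genes with at least 480 counts the correlations with CALCRL ran from -0.87 to 0.91, against -0.62 to 0.70 for ADM over 11071. The libraries share calves, depth and the share of kept reads, and these correlations are given as a description.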

How the data were processed

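Leukocyte mRNA of 12 calves was sequenced as 36-base single reads. Per the labels and the study's methods, the authors placed them on Btau4.0 with Bowtie 0.12.7, with no mismatch allowed and reads with several alignments discarded. Of the reads at 1 position they retained a single one. The values deposited are the counts that HTSeq 0.4.6p2 then gave for each Ensembl gene, not normalised. Keeping 1 read per position caps the count of a short, abundant transcript, and mismatch-free alignment loses reads over variants. Whether counting used the strand is not given in the sources used here. No base sequence was at hand, so none is shown, and no coordinates are printed because the gene table supplied is of another build.

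The main test was edgeR 4.0.16's quasi-likelihood F-test in R 4.3.3 on these counts, with TMM factors, for genes reaching a total of 10 counts, over 12 libraries for each pair of groups, and over 24 with calf as a block for each interaction. Beside it stand exact permutation tests, two-sided, on log2(CPM + 1). The alternatives are named under the dependence on the processing, and the share of kept reads was added as a covariate after the data were seen. Flowcell and kept reads came from the study's lane table and were matched to days by its sampling numbers. The procedures were tested on simulated data. Figures were drawn in Python 3.11.15 with matplotlib 3.10.9.

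The members and lists were chosen with earlier results of these data known. The named genes were ADM and CALCRL, the identified genes of the adrenomedullin list, those of the other lists with an unadjusted p under 0.05 where ADM or CALCRL had one, and the 5 most and 3 least alike named genes. Markers that meet this rule and are not described one by one are counted in the closing section. KDR and TEK levels, and the 4 libraries highest in CALCRL, were singled out after their values were seen. Symbols came only from the study's tables of called genes (643 identifiers). Calf numbers in the labels pair the libraries of an animal; deviations from the group means of d 0 and later libraries of the same calf correlated at -0.51 to 0.87. Any 2 libraries of a group differed by at least 2.88 times the sampling noise, by chi-square over genes, so none was taken as a duplicate.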

Additional observations from a re-analysis of the deposited data

Results flagged for a closer look

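Within the groups of 6 calves, 8 single libraries lay farther from the rest than Dixon's limit for 6 samples, over 32 groups of ADM, CALCRL, RAMP3 and MME. For normal values chance gives about 1 in 20 groups. The limit was applied to untransformed CPM, and ADM, RAMP3 and MME had a median of 2 counts, so that rate need not hold here. For ADM the flagged libraries were weaned calf 1769 on d 0 at 36.8 CPM, control calf 1803 on d 0 at 7.33 CPM and control calf 1802 on d 7 at 2.73 CPM. For CALCRL they were weaned calf 1773 on d 1 at 37.7 CPM and weaned calf 1758 on d 2 at 34.4 CPM. For RAMP3 they were control calf 1789 on d 7 at 7.70 CPM and weaned calf 1769 on d 1 at 4.88 CPM, and for MME weaned calf 1758 on d 2 at 5.43 CPM. The libraries of calf 1773 on d 1 and calf 1758 on d 2 are among the 4 with the highest share of kept reads and the most genes detected. No cause was tested for any of these.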

How the results depend on the processing

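ADM and CALCRL were recomputed in 13 comparisons each. Over the alternatives that kept all calves, 164 of 176 values kept direction and side of the threshold (for 6 of ADM's 10 DESeq2 values only direction, as DESeq2 gave no adjusted p), and over 240 values with 1 calf left out, 218 did. With a common dispersion, the exact test called ADM in weaned against control calves on d 0 (1.82), in weaned calves on d 1, 2 and 7 (-3.01, -3.04 and -2.60) and in control calves on d 7 (-1.30), and CALCRL in weaned calves on d 1 (1.07). It treats every gene as equally variable. With flowcell as a block, ADM on d 0 was -1.77 and CALCRL between treatments on d 2 -0.084. With calf as replicate block, CALCRL in control calves on d 1 was -0.18, and the block changed no call of the 2 genes, while 2 other genes were called in weaned calves on d 1 in place of 0. Without the replicate block, the d 7 interaction of ADM was -1.24. With the share of kept reads, CALCRL was -0.10 in weaned calves on d 7 and -0.25 in control calves on d 1. RLE size factors, dropping the filter, and 1 fit over all 48 libraries changed neither a direction nor a call of the 2 genes. Nor did DESeq2 1.42.0, by whose Wald test CALCRL in control calves on d 7 had an adjusted p of 0.0364 at -0.97. The cause of these changes was not tested.

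Leaving out each calf in turn, ADM between treatments ranged from -1.72 to 2.84, -1.77 to -0.26, -1.12 to -0.23 and -0.028 to 1.46 on d 0, 1, 2 and 7, in weaned calves from -3.65 to 0.30, -3.72 to 0.73 and -3.35 to 1.10 on d 1, 2 and 7, and in control calves from -0.064 to 0.19 and -1.10 to 0.14 on d 1 and 2. Its interactions ranged from -3.02 to 0.21, -2.17 to 0.92 and -0.99 to 2.00. CALCRL between treatments ranged from -0.053 to 1.13, -0.11 to 0.93 and 0.45 to 1.17 on d 1, 2 and 7, in weaned calves from -0.10 to 1.04 and -0.13 to 0.69 on d 2 and 7, and in control calves from -0.35 to 0.17 on d 1 and -1.17 to -0.64 on d 7. Its interactions ranged from 0.83 to 1.36, 0.21 to 1.03 and 0.62 to 1.35.

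The number of genes called in control calves on d 7, 515, was 579 by DESeq2, 743 by the exact test, 11 with flowcell as a block, 2 with the share of kept reads and 1 with all 48 libraries in 1 fit. In the other 12 comparisons, edgeR's F-test called 0 genes. The exact test, which was not run on the 3 interactions, called 0 to 865 in the other 9, and without a filter the d 7 interaction called 625. Depth limits RAPGEF4, RAMP3, ADM and MME: with 3 counts or fewer in over 30 of 48 libraries each, changes among low libraries could not be detected.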

Other observations

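The d 0 library of weaned calf 1769 was compared gene by gene with the other 47, after its ADM value had been seen. In it, 9 genes had at least 30 counts and a level at least 2-fold above every other library. Besides ADM, at 4.78 times the next library, the named ones were ALDH1A1, a retinal dehydrogenase (132 counts, 6.30 times), FOLR1, a folate receptor (116 counts, 5.85 times), the Wnt receptor FZD4 (182 counts, 2.89 times) and IL12B, the shared subunit of interleukin 12 and 23 (134 counts, 2.38 times). Another, ENSBTAG00000021516, had 55 of its 56 counts in this library. Over all 48 libraries the number of such genes ranged from 0 to 24 with a median of 0, and 2 libraries had more than this one.

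All identified marker rows, those described above included, were counted by an unadjusted p under 0.05. In weaned calves on d 2, 4 of 16 rows had such a p upwards and 4 downwards, against 2.11% of all genes tested. In weaned calves on d 7 it was 1 and 5 of 14 rows, against 2.66% of genes. In control calves on d 7 it was 3 and 1 of 15 rows, against 40.1% of genes. In the d 1 interaction it was 3 and 1 of 17 rows, against 22.3% of genes. None of these rows passed the adjustment. Platelet PPBP ranged from 0.249 to 29.0 CPM in weaned calves on d 1, and its highest value was in the library of calf 1769, which was also highest in RAMP3 in that group.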
